A study of Mus musculus with 44 samples.

Results

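Interleukins, cytokines of the tumour necrosis factor (TNF) family and their receptors were described across Eµ-myc mouse lymphomas and 1 Eµ-myc spleen. The members were the genes whose array symbol begins with Il and a digit, with Tnfrsf (TNF receptor superfamily) or with Tnfsf (TNF superfamily ligand), apart from Il7r and Tnfrsf13c. The array measured 90 such genes, and 53 of them lay above the median signal of their class on at least 1 array. Over the whole array 8721 of 12393 genes met that condition. All animals carried the Eµ-myc transgene, in which the immunoglobulin heavy chain enhancer drives Myc in B lineage cells, so the spleen shares it and no sample without it was used. Of the 44 arrays, 43 were labelled lymphoma and 1 spleen, 1 array per sample, and the labels give no age, sex or treatment. Whether some lymphomas share an animal, whether the spleen was free of disease, and which samples were frozen as tissue and which as cell pellets is not in the labels. The p-values below therefore measure the spread between these samples. Samples are named by the D number of their titles.

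Interleukins are secreted signals between leukocytes, and most of them act through paired receptor chains that recruit JAK kinases and STAT transcription factors. Members of the IL-1 family signal instead through MyD88 to NF-kB, and soluble antagonists and decoy receptors hold them in check. TNF family ligands are trimers that bind receptors on neighbouring cells and activate NF-kB or, where the receptor has a death domain, apoptosis. In B cells these receptors carry survival, class switching and plasma cell signals, for which TACI and BCMA (Tnfrsf13b and Tnfrsf17) are examples, and in lymphoid tissue many other members belong to T cells, myeloid cells or stroma.

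The deposited log2 values stood on 2 levels. The 36 lymphomas D34 to D117 (class 1) had column medians of 6.21 to 6.45, and the 7 lymphomas D121 to D163 with the spleen D168 (class 2) had 6.85 to 7.01. Levels below are log2 values within a class, "centred" values are log2 values minus the mean of the lymphomas of that class, and SDs are over the centred values of 43 lymphomas. B lineage markers were high in most lymphomas, with a mean over 10 pan B cell genes of 6.90 to 10.81 in class 1 (median 10.13) and 9.49 to 11.14 in class 2. Lymphoma D92 was the lowest. Its Cd79a was 6.42 against a class median of 11.40, its Ebf1 was 3.30 against 8.99, and its Cd8b1 (11.8) and Cd4 (9.9) were the highest of class 1. Its T cell receptor subunits Cd3d, Cd3e and Cd247 were below the class median, with Cd3d at 6.13 against 7.49, and 9 of 14 T cell markers lay above it. D55, D59 and D121 followed, and counts and calls of named members that these 4 change are also given without them. They are called low in B cell markers by this mean, and not every marker was low. Ms4a1 in D55 (11.20 against 11.48), Ebf1 in D59 (8.70 against 8.99) and Fcrla in D92 (9.43 against 9.72) lay near the class 1 median. D121, of class 2, had Ms4a1 at 11.80 and Ebf1 at 6.04. In bulk RNA, fewer cells of a type and less RNA per cell cannot be told apart.

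Many T cell interleukins were not kept. The 37 genes below the class median on all arrays were the interleukins Il2, Il3, Il4, Il5, Il6, Il7, Il9, Il11, Il12b, Il17b, Il17d, Il23a, Il24, Il25 and Il34, the IL-1 family genes Il1a, Il1f5, Il1f6, Il1f8 and Il1f9, the receptors Il1rapl2, Il1rl2, Il9r, Il12rb2 and Il17rd, the enzyme gene Il4i1, the TNF receptors Tnfrsf8, Tnfrsf10b, Tnfrsf11a, Tnfrsf11b, Tnfrsf22, Tnfrsf23 and Tnfrsf25, and the ligands Tnfsf4, Tnfsf10, Tnfsf13b and Tnfsf14. Among the 53 kept genes, 6 lay above the class median in all 43 lymphomas: Il10rb, Il16, Il17ra, Il17re, Tnfrsf4 and Tnfrsf13b. A further 19 did so in only 1 to 5 lymphomas. Tnfrsf14 was kept through the spleen alone.

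The kept members had a median SD of 0.59 between lymphomas, beside 0.34 over all kept genes. A low gene passes the filter if 1 array is high, so the kept genes were chosen in part by their spread. Without the filter the median SDs were 0.35 for the 90 members and 0.28 for all 12393 genes. The scaled median absolute deviation had medians of 0.30 over the kept members and 0.27 over all kept genes. An SD of 1 or more was reached by 4 of the 53, Tnfrsf19 (1.44), Il18 (1.37), Tnfrsf21 (1.09) and Il6st (1.05), and by 6.97% of all kept genes. Some of these large SDs came from a few lymphomas: without D55, D59, D92 and D121 only Tnfrsf19 and Tnfrsf21 reached 1.

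**Figure D1:**
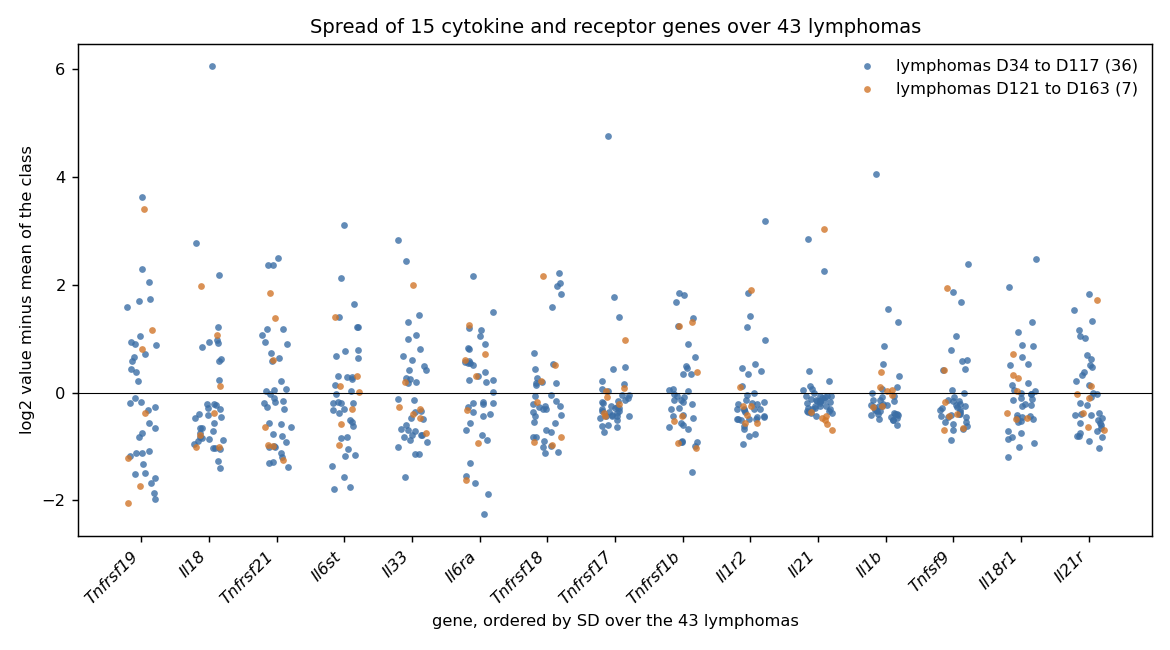
Each point is a lymphoma, placed by its log2 value minus the class mean, for the 15 members with the highest SD. Tnfrsf19 spreads over the whole range, while Il18, Tnfrsf17 and Il1b each have 1 lymphoma far above the next, at 6.05, 4.75 and 4.05. The next highest lie at 2.78, 1.77 and 1.55. For Il18, 6 lymphomas lie at least 1 above the class mean.

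Among the secreted interleukins, Il18, an IL-1 family cytokine released by inflammasome cleavage, ranged in class 1 from 5.75 to 13.20 with a median of 6.71, and in class 2 from 6.72 to 9.71 with a median of 7.35. D92 held the maximum and lay 6.05 above its class mean, followed by D59 at 2.78. Il33, a nuclear alarmin of stromal and endothelial cells, ranged from 5.05 to 9.45 (median 6.38) and from 5.88 to 8.63 (median 6.33). The high lymphomas were D59, D62 and, in class 2, D161. Il21, a helper T cell cytokine that drives germinal centre and plasma cell responses, had a class 1 median of 3.76 and exceeded the median signal of its class in only D88 (6.77) and, in class 2, D163 (7.58, where the median was 4.06). D117 was the next highest in class 1, and the other lymphomas lay close together.

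Il1b, the main inflammatory IL-1 cytokine, was at 9.77 in D88 against a class 1 median of 5.47, and its class 2 values ran from 5.74 to 6.40. Il17a, a cytokine of Th17 and innate-like T cells, was likewise high in D88 alone, at 6.65 against a class 1 range that starts at 3.57 with a median of 3.91. Il10, an anti-inflammatory cytokine, reached 7.10 in D52 (class 1 median 4.89) and 6.91 in D163 (class 2 median 5.42). Il15, a growth factor for NK and memory CD8 T cells, reached 7.28 in D59 against a class 1 median of 4.26. Il12a, Il13, Il16, Il1f10 and Il20 had SDs of 0.63, 0.21, 0.56, 0.21 and 0.23.

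Of the antagonists and decoys, the IL-1 decoy receptor Il1r2 ranged from 4.65 to 8.79 in class 1 (median 5.30) and from 5.91 to 8.38 in class 2 (median 6.23). D88 and D163 were the highest lymphomas of their classes. The IL-1 receptor antagonist Il1rn was also highest there, at 7.66 and 7.90, with medians of 6.31 and 7.16. Il18bp, the secreted inhibitor of IL-18, was highest in D78 (8.76, class median 6.08) and D163 (8.61, class median 6.82). Il13ra2, a decoy for IL-13, was high in D78 alone, at 6.40, where the next highest centred value was 0.38.

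On the used probe sets the IL-6 receptor chains varied widely among the haematopoietin receptors. The other probe sets had SDs of 0.14 and 0.31 for Il6st and 0.20 for Il6ra. Il6st, the shared signalling chain gp130, ranged from 4.90 to 9.80 in class 1 (median 6.51) and from 6.52 to 8.90 in class 2 (median 7.51). Il6ra, the IL-6 binding chain, ranged from 5.12 to 9.53 in class 1 (median 7.47) and from 5.82 to 8.70 in class 2 (median 7.74). D59 was highest for Il6st and D92 for Il6ra, while D107 had the lowest Il6ra. Il21r, the IL-21 receptor, ranged from 5.64 to 8.50 with D117 highest and from 6.57 to 8.97 with D163 highest, and 7 lymphomas lay at least 1 above their class mean. Il5ra, the IL-5 receptor of B-1 cells and eosinophils, was high in D89 alone, at 8.73 against a median of 5.02. Il2ra, the alpha chain of the IL-2 receptor, was high in D34 alone, at 6.56 against 4.47. Il10ra was highest in D55 (8.82, median 6.46) and D121 (9.24, median 7.11). The other receptors of this group, Il2rb, Il3ra, Il4ra, Il10rb, Il12rb1, Il13ra1, Il15ra, Il27ra and Il31ra, had SDs of 0.35 to 0.65 on the used probe sets. The other probe set of Il2rb had an SD of 1.11, and those of Il13ra1 reached 0.86. For Il10ra, Il1rap, Il4ra, Tnfrsf1b and Tnfrsf9 another probe set of the gene correlated at only 0.05, 0.19, 0.02, -0.01 and 0.15 with the used one. The remaining probe set of the gene correlated at 0.94 for Tnfrsf9, 0.85 for Il4ra, 0.58 for Il1rap and 0.46 for Il10ra, and Tnfrsf1b had no other.

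Il18r1, the IL-18 binding chain, was the most variable IL-1 family receptor (SD 0.77), with a class 1 range of 4.60 to 8.27 and D92 and D46 highest. Il18rap, Il1r1 and Il1rap had SDs of 0.35, 0.53 and 0.40. IL-17 receptor genes varied little, with SDs of 0.40 (Il17ra), 0.42 (Il17rb), 0.17 (Il17rc) and 0.17 (Il17re). Il17rb, which with Il17ra binds IL-25, was highest in D55 and D121, and Il17ra was highest in D161 at 11.59 (class 2 median 10.19).

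On the used probe sets Tnfrsf19 (TROY), a TNF receptor best known from hair follicle and nervous system, was the most variable member. Its other probe sets had SDs of 0.14 and 0.35, and with the mean of the probe sets only Il18 reached an SD of 1. Its level ranged from 4.97 to 10.58 in class 1 (median 6.77) and from 5.86 to 11.32 in class 2 (median 7.52). D89 and D161 were highest, at 3.64 and 3.41 above their class means, and 9 lymphomas lay at least 1 above. Tnfrsf21 (DR6), a death receptor that restrains B and T cell expansion, ranged from 4.76 to 8.64 in class 1 (median 5.98) and from 4.87 to 7.96 in class 2 (median 5.47). Its high lymphomas were D75, D59 and D78 in class 1 and D161 and D163 in class 2. Tnfrsf17 (BCMA), the receptor of plasma cells, was at 9.21 in D88 against a class 1 median of 4.19, and the next highest centred value, in D52, was 1.77. Tnfrsf13b (TACI) was above the class median in every lymphoma, at 8.78 to 11.45 in class 1 and 9.76 to 11.71 in class 2. Tnfrsf12a, the receptor of TWEAK, had an SD of 0.20.

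Costimulatory TNF receptors and ligands shared their highest lymphomas. Tnfrsf4 (OX40) ranged from 6.80 to 9.35 in class 1 (median 7.19) and from 7.11 to 9.46 in class 2 (median 7.49). Tnfrsf9 (4-1BB, CD137) ranged from 5.35 to 7.94 (median 5.81) and from 6.37 to 9.66 (median 6.61). Tnfsf8 (CD30 ligand) ranged from 5.16 to 7.73 (median 5.48) and from 5.67 to 8.29 (median 5.98). In each of these genes D88, D117 and D163 were among the 4 highest centred values, with D46 the other, and Il21 had the same 3 at the top. Pearson correlations over the 43 lymphomas, given as a description of points that share the same arrays, were 0.93 for Tnfrsf4 with Tnfrsf9, 0.92 for Tnfrsf4 with Tnfsf8 and 0.91 for Il21 with Tnfrsf9. Tnfrsf18 (GITR) ranged from 5.27 to 8.62 with D46 highest and from 6.07 to 9.20 with D163 highest, and Tnfsf9 (4-1BB ligand) from 5.03 to 8.30 with D78 highest and from 5.91 to 8.55 with D163 highest. Tnfsf11 (RANKL) was highest in D161, at 7.0 against a class 2 median of 5.64.

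T cell marker levels stood beside these values. The mean of 14 T cell genes was 5.33 to 8.80 in class 1 (median 6.68), with D46, D117 and D88 at 8.80, 8.66 and 8.23, and 6.41 to 8.95 in class 2 with D163 at 8.95. Cd3d, a T cell receptor subunit, was at 10.6 in D88, 11 in D117 and 10.8 in D46 against a class median of 7.5. Their part in the levels of Il21, Tnfrsf4, Tnfrsf9 and Tnfsf8 was not tested.

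**Figure D2:**
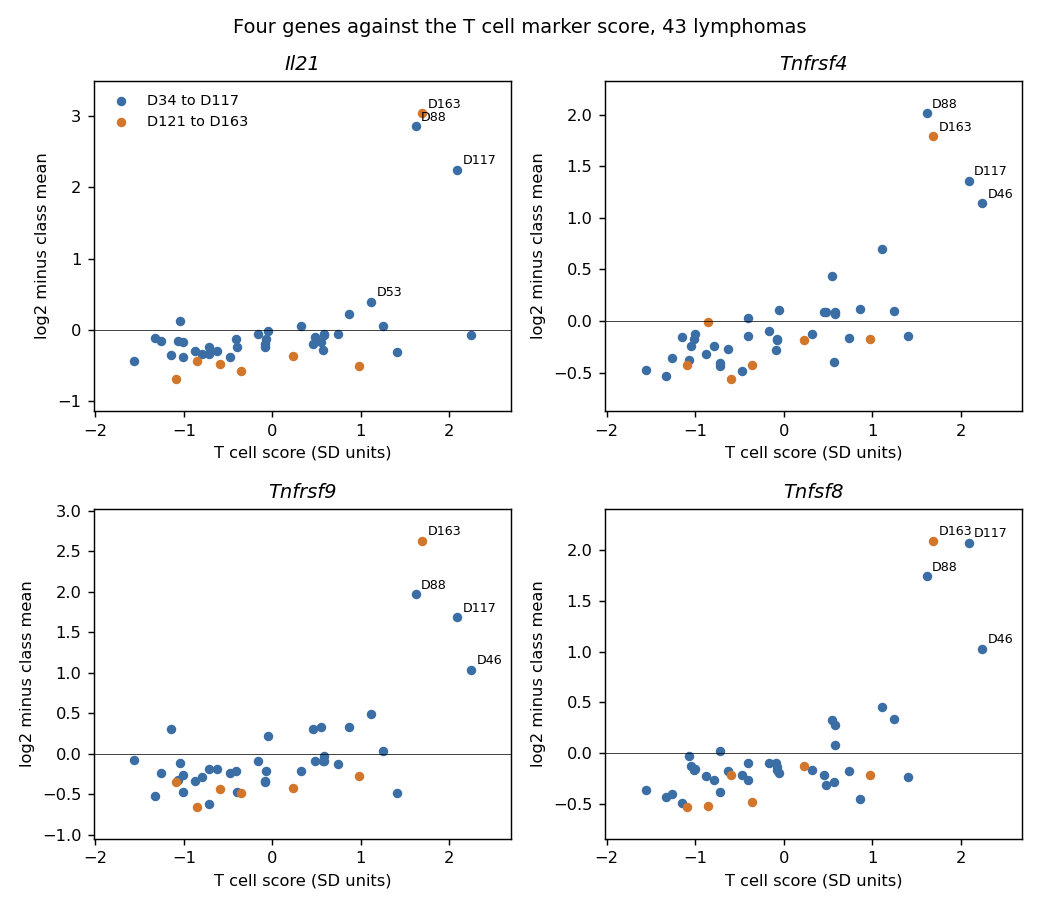
Each point is a lymphoma, with its T cell marker score in SD units on the x axis and the gene's log2 value minus the class mean on the y axis. The 4 lymphomas with the highest values are named in each panel; D88, D117 and D163 are high in all 4 panels, and D46 is high for the TNF family genes but not for Il21.

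The RefSeq promoters (GRCm38.p6) of Tnfrsf9 and Tnfrsf18 are shown up to the start of transcription as a description, because both genes were among those with the largest statistics on the NF-kB response score below. No comparison uses these sequences. Capitals mark matches on either strand to the NF-kB motif, GGG followed after any 2 bases by TTTCC, or to the STAT motif TTCNNNGAA. The stretch before the downstream of the annotated Tnfrsf9 starts, chr4:150927749-150927998 on the plus strand, holds GGGGATTTCC 34 bases and TTCCAAGAA 128 bases before the start. The stretch before the other annotated start, chr4:150919905-150920154, held no match to these motifs. That before Tnfrsf18, chr4:156026072-156026321 on the plus strand, holds TTCACAGAA 91 bases before the start.
Tnfrsf9: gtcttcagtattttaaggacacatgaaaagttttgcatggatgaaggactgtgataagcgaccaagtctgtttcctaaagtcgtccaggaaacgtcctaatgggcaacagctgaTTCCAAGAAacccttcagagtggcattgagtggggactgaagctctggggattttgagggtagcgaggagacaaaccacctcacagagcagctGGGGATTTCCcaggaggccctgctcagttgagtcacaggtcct
Tnfrsf18: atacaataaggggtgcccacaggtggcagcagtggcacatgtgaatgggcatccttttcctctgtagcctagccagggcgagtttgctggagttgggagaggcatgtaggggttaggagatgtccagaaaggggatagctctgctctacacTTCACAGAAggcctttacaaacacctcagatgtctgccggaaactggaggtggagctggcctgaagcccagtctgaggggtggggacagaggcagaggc
The RefSeq table held 44 of the 53 members with 56 promoters, searched from 250 bases before to 50 after each start. The NF-kB motif matched in 5 members (Il16, Il17rc, Il1rn, Il4ra and Tnfrsf9) and in 1.90% of all 27025 genes with a promoter in the table. The interferon stimulated response element, GAAA followed after any 2 bases by another GAAA, matched in 4 (Il1rap, Tnfrsf14, Tnfrsf17 and Tnfrsf1b) and in 3.99% of all genes. The STAT motif matched in 8 (Il18r1, Il1r2, Il31ra, Tnfrsf18, Tnfrsf19, Tnfrsf1a, Tnfrsf1b and Tnfrsf9) and in 9.55% of all genes.

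High values gathered in a few lymphomas. In D88, 16 of the 53 members lay 1 log2 unit or more above the class mean, against 6.57% of all kept genes, and in D163 it was 15 (7.68% of all). D59 had 14 (12.5%), D46 13 (7.41%), D117 12 (5.52%) and D78 9 (7.85%). D92, D52 and D161 had 8 each (5.72%, 8.49% and 4.49% of all). Some counted members had passed the filter only through that lymphoma: Il17a and Tnfrsf17 (D88), Il15 (D59), Il13ra2 (D78), Il31ra (D92) and Tnfsf11 (D161). They had to be above the class median there, and the same filter applied to all kept genes. The 14 in D59 were, from 3.12 down to 1.13 above the class mean, Il6st, Il15, Il33, Il18, Tnfrsf21, Il1r1, Tnfrsf1a, Il18bp, Tnfrsf1b, Il13ra1, Il18r1, Il10rb, Il6ra and Il15ra. D59 also had the highest stroma and endothelium score (4.77 SD) and the highest interferon response score (4.31 SD) of the 43.

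The spleen was set against the lymphomas with the class as a covariate. It is 1 array with no spread of its own, and the SE and adjusted p come from the spread of the lymphomas, so the test compares this array with them. Higher in the spleen were 3 of the 53 members (7.60% of all genes were higher), and 0 were lower (5.79% of all), with 1 lower at an unadjusted limma p under 0.05. The median difference was -0.04 over the members and -0.16 over all genes. Tnfrsf14 (HVEM), a receptor of LIGHT and BTLA, was at 7.02 in the spleen and at 5.54, 5.70, 5.89, 5.99, 6.10, 6.16 and 6.25 in the class 2 lymphomas, a difference of 1.07 ± 0.23 (SE; limma adjusted p = 0.000652). It had passed the filter only through the spleen, so it had to be high there. Tnfrsf1a, the main TNF receptor, was at 9.65 in the spleen and at 6.81 to 8.43 in the lymphomas (median 7.31), a difference of 2.11 ± 0.65 (SE; adjusted p = 0.0246). Il1r2 was at 9.06 in the spleen, above the lymphoma D163 at 8.38 and the other lymphomas at 5.91 to 6.58, a difference of 2.59 ± 0.88 (SE; adjusted p = 0.0410).

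Tnfrsf1a and Il1r2 were higher in the spleen than in every class 2 lymphoma, and the count of 3 includes Tnfrsf14, whose place the filter fixed. In all, 13 members lay above every class 2 lymphoma (19.6% of all genes did), the others being Il10, Il10rb, Il15, Il17rc, Il18, Il1b, Il1r1, Il5ra, Il6st and Tnfrsf21. Another 9 lay below every one of them (31.0% of all genes), Il12rb1, Il13, Il16, Il17ra, Il17rb, Il20, Il2ra, Tnfrsf13b and Tnfsf11. With the 7 class 2 lymphomas alone none of the 53 members passed the limma test, 10 being higher and 2 lower at an unadjusted p under 0.05, and the adjusted p-values of the 3 were 0.0511, 0.0664 and 0.0887. Tnfrsf21 was at 9.29, Il6st at 9.78 and Il10 at 7.38, and they missed the threshold, with differences of 3.17 ± 1.13, 2.28 ± 1.09 and 1.62 ± 0.60 (SE; adjusted p = 0.0534, 0.158 and 0.0630). These 3 passed without the 4 lymphomas low in B cell markers (adjusted p = 0.0361, 0.0421 and 0.0477). With the mean of the probe sets the differences of Tnfrsf21 and Il6st were 2.12 and 0.90. Markers of other cells also differed in this spleen. There 10 of 12 neutrophil, 11 of 11 erythroid, 5 of 6 megakaryocyte and 2 of 2 mast cell and basophil markers were higher. Higher too were 4 of 19 macrophage, 5 of 18 stroma and endothelium, 3 of 9 plasma cell and 3 of 15 interferon response genes. Of 14 T cell markers 0 were higher. The plasma cell markers averaged 11.91 in the spleen and 7.05 to 10.67 in the class 2 lymphomas. The neutrophil markers averaged 12.41 in the spleen and 5.57 to 9.35 in the class 2 lymphomas, the macrophage markers 9.46 against 6.12 to 9.42, and the stroma markers 8.64 against 5.82 to 6.53. Their part in the 3 differences was not tested.

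**Figure D3:**
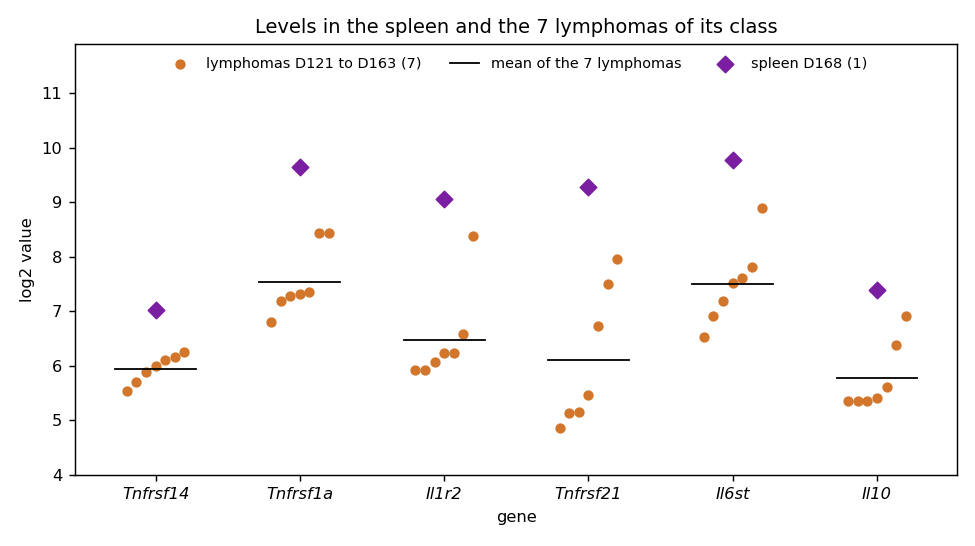
Log2 levels of 6 members in the 7 class 2 lymphomas (circles, with their mean as a line) and the spleen (diamond). The spleen lies above every lymphoma for all 6, of which Tnfrsf14, Tnfrsf1a and Il1r2 passed the test over all 44 arrays.

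Each member was then regressed over the 43 lymphomas on Myc and on 8 marker scores, a score being the average level of the kept genes of a marker list, centred within class. Slopes are log2 units per SD of the predictor with their SE, from limma over all genes, and "rose" or "fell" means an adjusted p under 0.05. Background shares were high, and the predictors moved together: Myc correlated at -0.79 with the germinal centre score, and the NF-kB response score at 0.76 with the germinal centre score and 0.71 with the T cell score. Of the 53 members, 8 passed in no regression (Il10ra, Il13, Il13ra2, Il17rc, Il17re, Il2ra, Il31ra and Tnfrsf12a) and 27 passed in 5 or more of the 9.

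**Figure D4:**
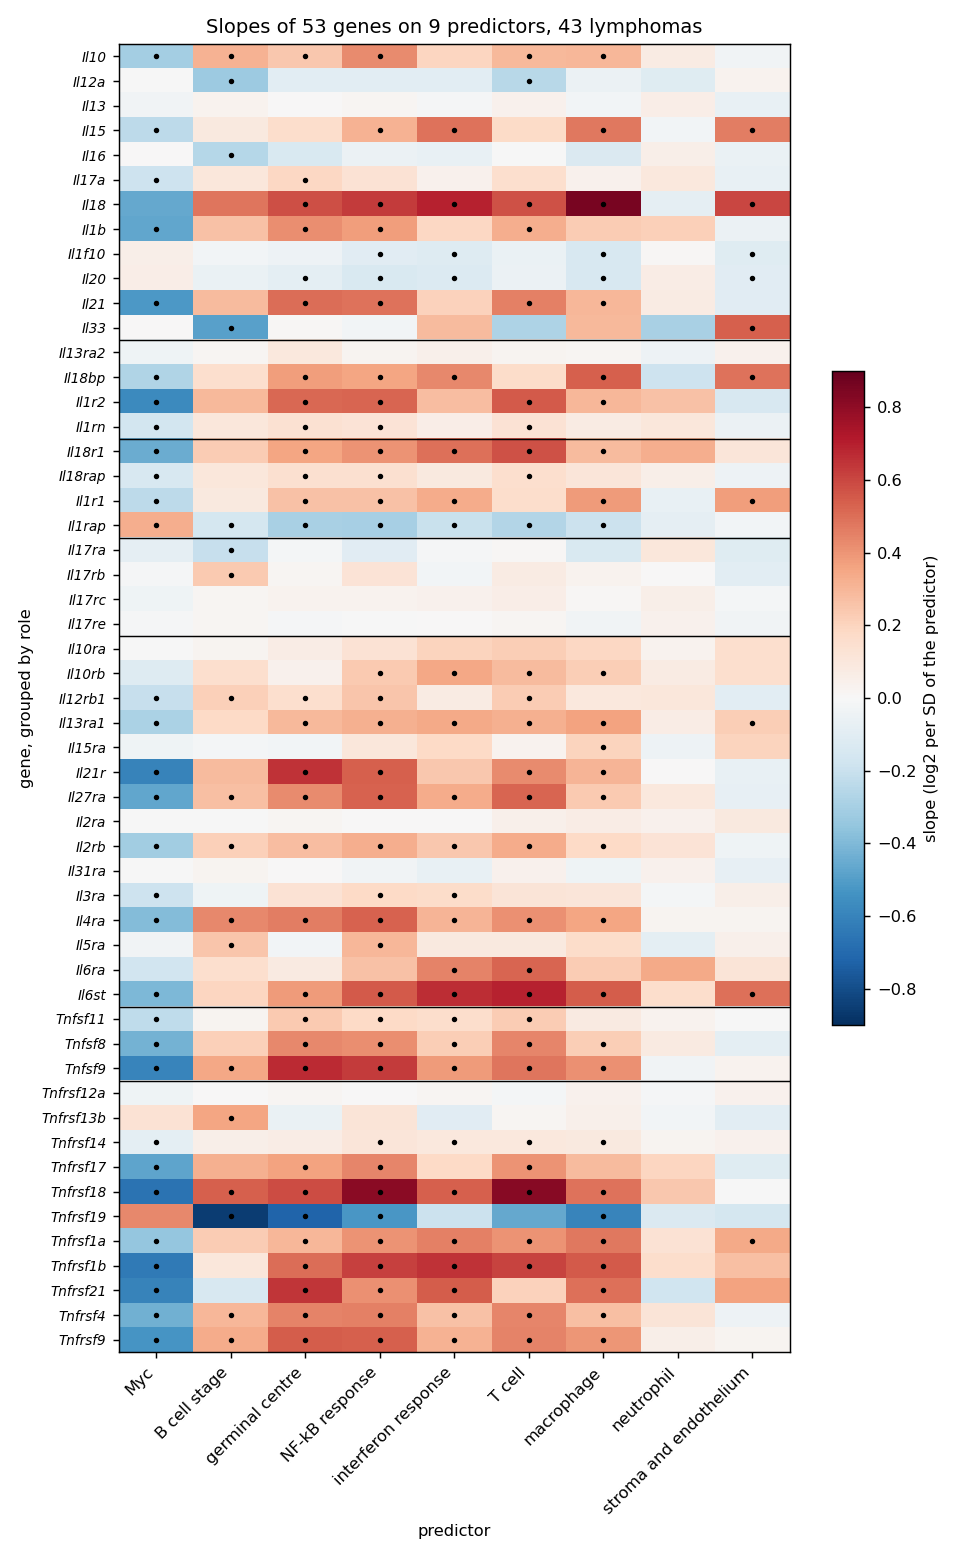
Slopes of the 53 members (rows, grouped by role) on 9 predictors (columns), in log2 units per SD of the predictor; red is higher, blue is lower, and a dot marks an adjusted p under 0.05. Il1rap has a dot of the colour opposite to most dots in 7 columns, and the neutrophil column holds 0 dots.

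Where Myc was higher, 30 members fell and 1 rose (16.9% of all genes fell and 26.4% rose), with a median slope of -0.19 against 0.02 over all genes. The 6 largest statistics were those of Il21r (-0.60 ± 0.07, adjusted p = 1.05e-07), Tnfrsf9 (-0.53 ± 0.07), Tnfsf9 (-0.60 ± 0.08), Tnfrsf1b (-0.64 ± 0.09), Tnfrsf4 (-0.43 ± 0.06) and Il27ra (-0.47 ± 0.07), a receptor of IL-27. All 3 TNF ligands and 8 of 11 TNF receptors fell, as did 8 of 15 haematopoietin and IL-10 receptors and 5 of 12 interleukins. The 4 IL-17 receptors had a median slope of -0.02. Il1rap, the accessory chain that IL-1, IL-33 and IL-36 receptors share, rose by 0.33 ± 0.04 (adjusted p = 3.30e-08). D88 and D163 had the lowest Myc relative to their class, and without them Tnfrsf9, Tnfsf9 and Il21r still passed.

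Along the B cell stage score, the mature minus the precursor B cell marker level, 12 members rose and 6 fell (11.4% and 13.3% of all genes), with a median slope of 0.11 against -0.01 over all genes. Without the 4 lymphomas low in B cell markers 27 members passed (32.7% of all genes), of which 21 rose (14.7%) and 6 fell. With ranks of the score 25 passed (31.3%), of which 21 rose (13.9%) and 4 fell. Il4ra, the IL-4 and IL-13 receptor chain, was at 6.05 to 8.47 in class 1 (median 7.16) and had the largest statistic among those that rose (0.43 ± 0.07, adjusted p = 2.40e-05). Tnfrsf13b rose by 0.35 ± 0.08, Tnfrsf18 by 0.53 ± 0.12, Il17rb by 0.23 ± 0.05, Il10 by 0.31 ± 0.07 and Il12rb1 by 0.22 ± 0.05. For Tnfrsf13b and Il17rb the stage was the single predictor of the 9 on which they passed.

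Lower in the more mature lymphomas were Tnfrsf19 (-0.86 ± 0.18, adjusted p = 0.000435), Il33 (-0.49 ± 0.13), Il12a (-0.33 ± 0.08), a subunit of IL-12 and IL-35, Il16 (-0.26 ± 0.08), Il17ra (-0.21 ± 0.05) and Il1rap (-0.16 ± 0.06). D89 went against the slope of Tnfrsf19, having both its highest centred value and the highest stage score. The slopes of Il33, Il12a, Il16 and Il17ra lost their call without D161 and D62, the lymphomas farthest from the median stage score (adjusted p = 0.172, 0.093, 0.272 and 0.157), and that of Tnfrsf19 did not.

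**Figure D5:**
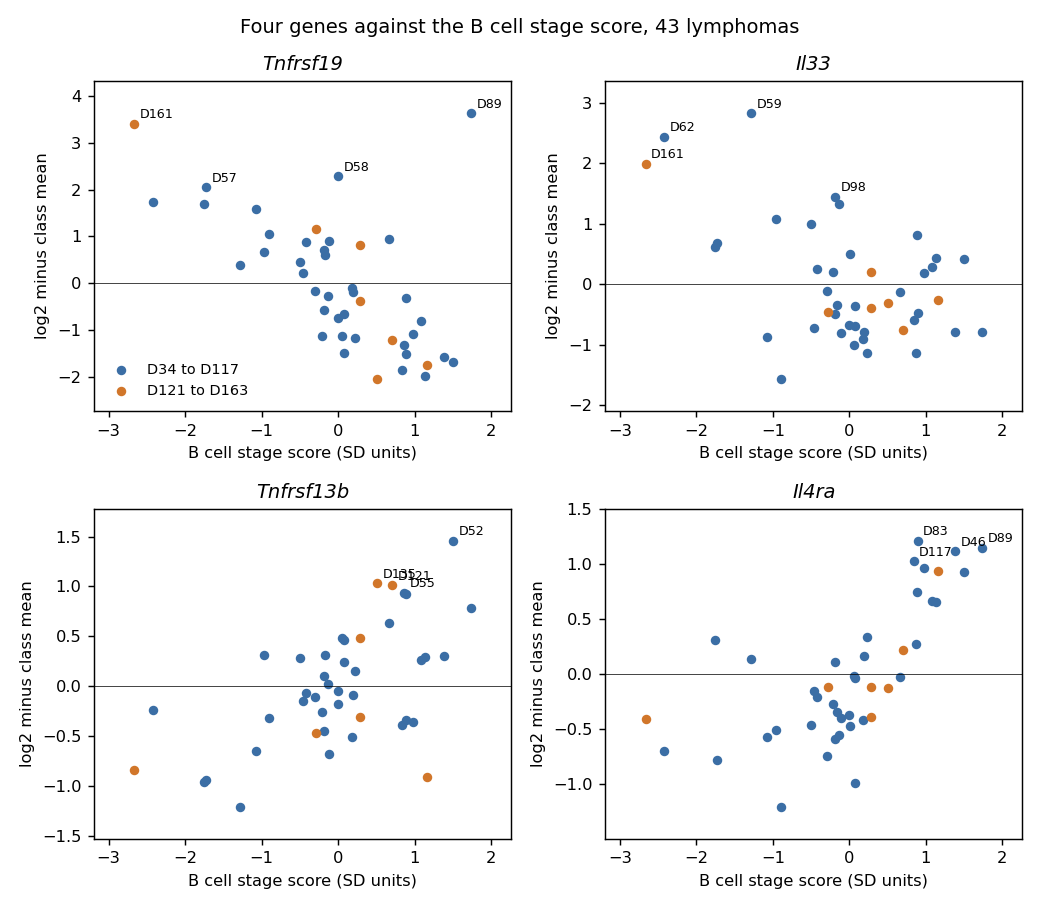
Each point is a lymphoma, with its B cell stage score in SD units on the x axis (higher is more mature) and the gene's log2 value minus the class mean on the y axis. The 3 highest values of Il33 lie toward the precursor end, while for Tnfrsf19 D161 lies there, D89 at the mature end and D58 (2.29 above its class mean) in the middle; the 3 highest of Tnfrsf13b and of Il4ra lie on the mature side.

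The germinal centre score split the lymphomas into 36 with low and 7 with high values (D46, D53, D75, D78, D88, D117 and D163). Over all 43, 28 members rose and 3 fell (17.0% and 26.7% of all genes), with a median slope of 0.15 against -0.02. Tnfsf9 (0.67 ± 0.06, adjusted p = 2.65e-11), Il21r (0.65 ± 0.06), Tnfrsf9 (0.55 ± 0.06), Tnfrsf4 (0.45 ± 0.06), Il4ra (0.46 ± 0.07) and Tnfsf8 (0.43 ± 0.07) had the largest statistics. Il1rap (-0.29 ± 0.04), Tnfrsf19 (-0.72 ± 0.19) and Il20 (-0.09 ± 0.03) fell. Il20 had passed the filter through D81 alone (6.50), which had a low germinal centre score (-0.87 SD). Within the 36 lymphomas of the lower group 17 rose and 3 fell (14.1% and 18.3% of all genes), and Tnfrsf4, Tnfsf8 and Tnfrsf19 no longer passed. The largest statistics there were those of Tnfrsf1a (slope 1.24), Il6st (2.12) and Il18 (2.54). D83, D59, D92 and D55 had the highest scores of the lower group (0.46, 0.44, 0.24 and 0.23 SD). D59, D92 and D55 are low in B cell markers, and the fit within this group was not repeated without them.

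Along the score of other NF-kB response genes, 32 members rose and 4 fell (19.7% and 30.1% of all genes), and the median slope was 0.25 against -0.03. Tnfrsf18 (0.82 ± 0.07, adjusted p = 1.42e-11), Il4ra (0.53 ± 0.06), Il27ra (0.53 ± 0.06), Tnfsf9 (0.63 ± 0.07), Tnfrsf9 (0.53 ± 0.07) and Tnfrsf4 (0.46 ± 0.06) led those that rose. Il1rap (-0.30 ± 0.04), Il20 (-0.14 ± 0.03), Il1f10 (-0.10 ± 0.03) and Tnfrsf19 (-0.53 ± 0.21) fell. Il20 had passed the filter through D81 alone (6.50) and Il1f10 through D84 alone (6.46). Both lymphomas were low on this score (-0.77 and -0.69 SD), so the filter required these genes to be high there. This score also fell into separate groups, with D46, D52, D53, D55, D59, D75, D78, D83, D88, D89, D117 and D163 in the upper 12. Among the lower 31 a single member, Tnfrsf1a, passed the test (0.115% of all genes).

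With the T cell score 27 members rose and 2 fell (15.1% and 23.5% of all genes), with a median slope of 0.17 against -0.02. Tnfrsf18 (0.82 ± 0.07, adjusted p = 2.19e-11), Il27ra (0.52 ± 0.06), Tnfrsf4 (0.44 ± 0.06), Il18r1 (0.57 ± 0.08), Il2rb (0.33 ± 0.05), the shared chain of IL-2 and IL-15 receptors, and Tnfrsf1b (0.61 ± 0.09), the TNF receptor of lymphocytes, had the largest statistics. Il1rap (-0.27 ± 0.05) and Il12a (-0.25 ± 0.09) fell, the latter with an adjusted p of 0.0762 without the 4 lymphomas low in B cell markers.

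Il15 was among the genes with the largest statistics on the interferon response, macrophage and stroma scores. It had passed the filter through D59 alone, and D59 was also the highest lymphoma on these scores (4.31, 3.17 and 4.77 SD). On the interferon response score 23 rose and 3 fell (17.6% and 26.8% of all genes; medians 0.18 and -0.03), led by Il15 (0.49 ± 0.06, adjusted p = 8.71e-09), Tnfrsf1b (0.65 ± 0.08) and Tnfrsf1a (0.46 ± 0.07). On the macrophage score 25 rose and 4 fell (18.4% and 28.8% of all genes; medians 0.20 and -0.03), led by Il18bp (0.54 ± 0.06, adjusted p = 1.56e-09), Il15 (0.48 ± 0.06) and Tnfrsf1a (0.47 ± 0.06), with Il18 at 0.85 ± 0.17. On the stroma and endothelium score 8 rose and 2 fell (9.70% and 8.77% of all genes; medians -0.0011 and -0.02). The 8 were Il15 (0.46 ± 0.06, adjusted p = 6.32e-08), Il18bp (0.49 ± 0.07), Il1r1 (0.37 ± 0.06), the signalling IL-1 receptor, Tnfrsf1a (0.34 ± 0.08), Il33 (0.54 ± 0.13), Il6st (0.50 ± 0.14), Il18 (0.60 ± 0.19) and Il13ra1 (0.22 ± 0.08), a receptor chain of IL-4 and IL-13.

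D59 weighed on the stroma slopes. Without D59 and D35, the lymphomas farthest from the median of that score, 2 of the 53 members passed, Il15 and Il18bp. Without the 4 lymphomas low in B cell markers, D59 among them, Il18 and Il18bp passed, and the limma adjusted p-values were 0.0648 for Il15, 0.121 for Il1r1, 0.286 for Tnfrsf1a, 0.250 for Il33, 0.373 for Il6st, 0.134 for Il1f10 and 0.308 for Il20. Il1f10 and Il20 fell on the interferon, macrophage and stroma scores by 0.15 or less per SD. They had passed the filter through D84 alone and D81 alone, which lay below the class mean on each of these scores. With the neutrophil score 0 members passed the limma test (0.195% of all genes), 3 being higher and 1 lower at an unadjusted p under 0.05.

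With all 9 predictors in a single model, which leaves for each slope only what the other 8 do not share, 0 members passed on Myc, on the interferon, macrophage and neutrophil scores, where 0.0115%, 0.310%, 1.34% and 0.126% of all genes passed. At an unadjusted limma p under 0.05 there were 5, 7, 7 and 0. On the stage score 6 fell (4.17% of all genes) and 0 rose (2.92%), with 6 higher at an unadjusted p under 0.05. They were Il33 (-0.89 ± 0.17, adjusted p = 0.00108), Il12a (-0.57 ± 0.13), Tnfrsf1b (-0.40 ± 0.10), Il16 (-0.51 ± 0.12), Tnfrsf21 (-0.65 ± 0.18) and Tnfrsf19 (-0.95 ± 0.29). On the germinal centre score Tnfrsf21 (0.94 ± 0.22), Il21r (0.48 ± 0.13) and Tnfsf9 (0.45 ± 0.13) rose (2.64% of all genes), and Il5ra (-0.62 ± 0.15), Il10rb (-0.48 ± 0.13) and Il15 (-0.29 ± 0.08) fell (2.32%). On the NF-kB response score Il5ra (0.98 ± 0.21) and Il27ra (0.55 ± 0.13) rose (2.68% of all genes). Il5ra was high in D89 alone, which had the highest NF-kB response score (2.39 SD) and a germinal centre score of -0.14 SD. It had passed the filter only through D89, so it had to be high there, and its slopes on these scores are not independent of that choice. Il6st (1.07 ± 0.19) and Tnfrsf18 (0.47 ± 0.12) rose on the T cell score (0.632% of all genes). On the stroma score Il6st (0.87 ± 0.19), Il1r1 (0.38 ± 0.11), Tnfrsf1a (0.33 ± 0.09) and Il15 (0.27 ± 0.08) rose (2.68% of all genes). D59 had the highest stroma score (4.77 SD), and D161 and D62 were farthest from the median stage score. The model with all predictors was not refitted without D89, D59, D161 or D62.

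Ligands, receptors and chains of 1 complex were compared as 17 pairs, with two-sided permutation tests within class (100000 permutations, for which 1e-05 is the smallest p) and Benjamini-Hochberg adjustment over the 17. Past the threshold were 14 pairs. The share of other gene pairs past it was not computed, so this count does not set partners apart from other genes. Members that are not partners correlated too, such as Tnfrsf4 with Tnfsf8 (r = 0.92) and Il21 with Tnfrsf9 (r = 0.91). The adjacent costimulatory genes Tnfrsf4 and Tnfrsf18 had r = 0.80 (rho = 0.68, permutation p = 1e-05, adjusted p = 5.67e-05), and r = 0.73 without D88 and D163. The ligand and receptor Tnfsf9 and Tnfrsf9 had r = 0.78 (rho = 0.63, adjusted permutation p = 5.67e-05), and r = 0.81 without D78 and D163. Both TNF receptors, Tnfrsf1a and Tnfrsf1b, had r = 0.68 (rho = 0.63, adjusted permutation p = 5.67e-05).

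Il1b moved with both its decoy Il1r2 (r = 0.72, rho = 0.64, adjusted permutation p = 0.000121) and its antagonist Il1rn (r = 0.70, rho = 0.33). Without D88 and D75 these were 0.64 and 0.51. Il18 and Il18r1 had r = 0.66 (rho = 0.44, adjusted permutation p = 0.000121), which was 0.41 without D92 and D59, whereas Il18 and its inhibitor Il18bp went from 0.51 to 0.77. Il6ra and Il6st had r = 0.60, Il15 and Il15ra 0.52, Il4ra and Il13ra1 0.47, Il10ra and Il10rb 0.38, Il27ra and Il6st 0.38 and Il1r1 and Il1r2 0.33. Both chains of the IL-1 receptor, Il1r1 and Il1rap, moved in opposite directions (r = -0.47, rho = -0.37, adjusted permutation p = 0.00291), r = -0.88 in the 7 class 2 lymphomas, and r = 0.0103 without centring. All 14 pairs had the same sign within class 1 and within class 2. Il1r1 with Il1r2 missed the threshold by Spearman rho (adjusted permutation p = 0.128), and Il10ra with Il10rb did so without the 4 lymphomas low in B cell markers (r = 0.23, adjusted permutation p = 0.160). The pairs Il2ra and Il2rb (r = -0.11), Il10 and Il10ra (0.14) and Il17ra and Il17rc (0.00) did not pass.

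Several members lie side by side in the RefSeq gene order, with 0 protein coding genes between them. Besides Tnfrsf4 with Tnfrsf18 and Il1r1 with Il1r2, correlations over the 43 lymphomas, as a description, were 0.69 for Il4ra and Il21r on chromosome 7, 0.49 for Il17rc and Il17re on chromosome 6, 0.31 for Il31ra and Il6st on chromosome 13, 0.31 for Il18r1 and Il18rap on chromosome 1, 0.28 for Il2ra and Il15ra and -0.17 for Il1f10 and Il1rn on chromosome 2.

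Genes of the same pathways under other symbols were taken from lists. Of 15 TNF family genes with other names 8 were tested, among them Cd40, Fas, Lta, Ltb and Ltbr. All 8 fell with Myc (16.9% of all genes), and all 8 rose on the germinal centre (17.0%), NF-kB response (19.7%) and T cell (15.1%) scores. Fas, a death receptor, had a germinal centre slope of 0.85 ± 0.06 (limma adjusted p = 3.42e-15), Cd40, the receptor of T cell help, an NF-kB response slope of 0.73 ± 0.07 (adjusted p = 1.05e-11), and Ltb, a lymphotoxin subunit, 1.19 ± 0.14 (adjusted p = 3.73e-09). Of 15 tested cytokine receptor partners 10 rose on the NF-kB response score (19.7% of all genes) and 11 on the interferon response score (17.6%), among them Csf2rb2 (0.73 ± 0.14 and 0.86 ± 0.13). In the spleen (7.60% of all genes higher, 5.79% lower) 1 of the 8 TNF family genes was higher, Ltbr, the lymphotoxin receptor of stroma and myeloid cells, by 2.0 ± 0.49 (adjusted p = 0.00390), and the median of the 8 was -0.37. Of the 15 receptor partners 4 were higher: Osmr, a gp130 partner chain, by 3.55 ± 0.98, the erythropoietin receptor Epor by 3.08 ± 0.16, the interferon receptor chain Ifnar2 by 2.19 ± 0.75 and Csf3r, the neutrophil growth factor receptor, by 1.61 ± 0.34. Sigirr, an inhibitory IL-1 family receptor, was lower by 1.65 ± 0.44 (adjusted p = 0.00732). Of 19 JAK, STAT and SOCS genes 10 rose and 4 fell on the NF-kB response score (19.7% and 30.1% of all genes), with Stat3 at 0.56 ± 0.04 (adjusted p = 2.35e-13) and the feedback inhibitor Socs3 at 0.85 ± 0.11. Of 10 genes of IL-1 receptor signalling 3 rose and 3 fell on that score, and of 13 genes of TNF receptor signalling 2 rose and 1 fell.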

How the data were processed

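Biotin-labelled cRNA from total RNA was measured on Affymetrix Mouse430A_2 arrays. The deposited values are log2 expression values for each probe set, and the submitters' processing notes name RMA and affy, with versions not given in the sources used here. The labels do not state why the column medians fall into 2 classes, and all fits carried the class as a covariate. Of 22690 probe sets, 64 were controls, 20380 had 1 gene symbol, 691 several and 1555 none; the last 2 kinds were left out, 4 of them with a symbol of the member families. Of the former, 20351 matched an Entrez identifier in the GRCm38.p6 table and 0 were renamed. The probe set with the highest mean stood for its gene, and a gene was kept if above the median of its class (6.28 or 6.90) on at least 1 array.

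Fits used limma 3.58.1 in R 4.3.3 (lmFit, eBayes with an intensity trend, two-sided, Benjamini-Hochberg over all genes tested, threshold 0.05), and the scripts were tested on simulated data. The genes of a predictor were left out of its fit. A score counted as clustered by a mixture of 2 components in mclust 6.1.1. The members, lists, motifs and tests were chosen with earlier results of these data known. Named with values were members called in the spleen, up to 6 per direction of each regression, the 15 with the highest SD, the pairs, and up to 4 genes of each pathway list; other values named were chosen after they were seen. Alternatives covered the filter, the probe set, the class, scaling, array weights (statmod 1.5.0), ranks, other predictors and subsets of lymphomas; those without the 4 lymphomas low in B cell markers and within the larger component were added after seeing the data. The number of arrays limits the precision.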

Additional observations from a re-analysis of the deposited data

How the results depend on the processing

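Over 691 recomputations, the 76 values of named members kept direction and side of the threshold in 560 cases, lost the threshold in 122 and reversed in 9; the model with all predictors accounts for 53 of the losses and 8 of the reversals. Equal column medians changed none of the 76 calls, and the mean of the probe sets none of the 67 it was run on (Il1rap and Il13ra1 were not kept there).

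Counts of members called moved by more than 1.5 times as follows, and the cause was not tested. In the spleen they were 5 without the filter (10.9%), with Il1f9 and Tnfrsf23 added, 6 without the class (13.4%) and 10 with array weights (28.1%). They were 0 with 7 lymphomas (9.39%) and 6 without the 4 low in B cell markers (16.5%). The model with all predictors gave 0 for Myc (0.0115%), 6 for stage (7.09%), 6 for germinal centre (4.96%) and 2 for NF-kB response (4.54%). It gave 0 for interferon response (0.310%), 2 for T cell (0.861%), 0 for macrophage (1.34%) and 4 for stroma (3.50%). The larger component gave 20 for germinal centre (32.4%) and 1 for NF-kB response (0.115%). Without the filter, 40 of 90 genes passed on interferon response (40.8%), 46 on macrophage (46.8%), 1 on neutrophil (0.234%) and 23 on stroma (25.2%). The 36 class 1 lymphomas gave 19 on macrophage (41.6%). Stroma gave 2 without the farthest lymphomas (3.31%), 1 with ranks (3.18%) and 2 without the low B cell marker lymphomas (3.79%). An SD of 1 or more was reached by 1 member with probe set means (6.14%) and 2 with the scaled median absolute deviation (3.41%). Without the low B cell marker lymphomas it was 2 (5.99%).

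Reversed with all predictors were Tnfsf9 on Myc (0.0197), Tnfrsf4 on Myc (0.0317), Tnfrsf19 on NF-kB response (1.18), Tnfrsf1a on interferon response (-0.0144), Il1rap on interferon response (0.0086) and macrophage (0.0147), and Il1f10 (0.0415) and Il20 (0.0181) on stroma; Il20 on NF-kB response was 0.0461 within the larger component. Among pairs, Il1r1 and Il1rap came to 0.0103 without centring, Il2ra and Il2rb had rho 0.113, and Il17ra and Il17rc had rho -0.0849 and r -0.0462 with probe set means. No paired analysis was possible because the spleen and the lymphomas share no title number.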
